A study of Drosophila melanogaster with 9 samples.

Results

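The genes described here are predicted targets of the microRNA miR-313-3p that were well expressed in fly testes. They were chosen by 3 criteria. The authors' table marks them as TargetScan targets of miR-313-3p, it does not mark them as targets of the opposite arm miR-313-5p, and their mean over the control testis libraries was at least 3.2 on the log2(RPKM) scale, on which read numbers are scaled to transcript length and library size. The table holds 7539 genes. Targets of the 3p arm only numbered 443 among them, and 183 of these met the expression level. The mark and the control level are therefore properties of the choice and not results. The mutant libraries did not enter it, but each mutant-minus-control difference is taken from the same control values. They were set against 3517 genes marked for neither arm whose control mean was also at least 3.2, called unmarked genes below. All 183 targets are annotated as protein coding, while 3242 of the unmarked genes are. The rest carry another annotation or none.

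The RNA-seq compared testes of Dm310s mutant flies (2 libraries), with testes of control flies (2 libraries). Dm310s is taken here, from knowledge of the study and not from its labels, as the cluster of miR-310, miR-311, miR-312 and miR-313, which the mutant lacks. Mutant and control lines were both made from the stock EP(2)2587, a P-element line, so they have that background in common. All flies were adults of 3 to 5 days raised at 25 °C. Small RNAs were read in 1 library each from Canton-S testes, Z56 testes, Canton-S ovaries, Z56 ovaries and Canton-S carcass, and neither of these strains is the mutant or its control. It is not stated that the 2 libraries of a genotype are separate dissections. A p-value here covers the spread of these 4 libraries and no more, and that spread could be technical.

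A microRNA guides an Argonaute protein to messenger RNAs that pair with its seed, a short stretch near its 5′ end, and the bound messengers are translated less and decay faster. In flies the 3p arms of the miR-310 cluster have a seed in common with miR-92a-3p and miR-92b-3p, so a site predicted for miR-313-3p can in general pair with any of them. The question of the comparison is whether messengers with such sites stand higher in testes once the cluster is removed. In bulk testes, fewer cells of a type and less RNA per cell cannot be told apart.

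Among the arms with this seed, those of the cluster supplied nearly all reads in testes. miR-312-3p had 20542 RPM (reads scaled to the microRNA total of the library) in Canton-S testes and 25356 RPM in Z56 testes. miR-310-3p had 2272 RPM in Canton-S and 13290 RPM in Z56 testes, and miR-311-3p had 2590 RPM in Canton-S and 8912 RPM in Z56 testes. The arm that names the marks was the rarest of the family. Only 18 reads of miR-313-3p (12.8 RPM) were found in Canton-S and 38 (27.3 RPM) in Z56 testes. The relatives outside the cluster, miR-92a-3p and miR-92b-3p, had 601 and 351 RPM in Canton-S and 1638 and 621 RPM in Z56 testes. Together the 4 cluster arms made up 96.4% of the family's reads in Canton-S testes (95% Clopper-Pearson interval 96.2 to 96.6, of 37136 reads) and 95.5% in Z56 testes (95.3 to 95.6, of 69471 reads). In ovaries the share of the cluster was 69.0% in Canton-S (68.3 to 69.6) and 79.5% in Z56 (78.9 to 80.1). The carcass held 853 reads of the family, 44.8% of them from the cluster (41.4 to 48.2). These intervals reflect counting error alone, because copies made by PCR are not separate molecules.

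**Figure D1:**
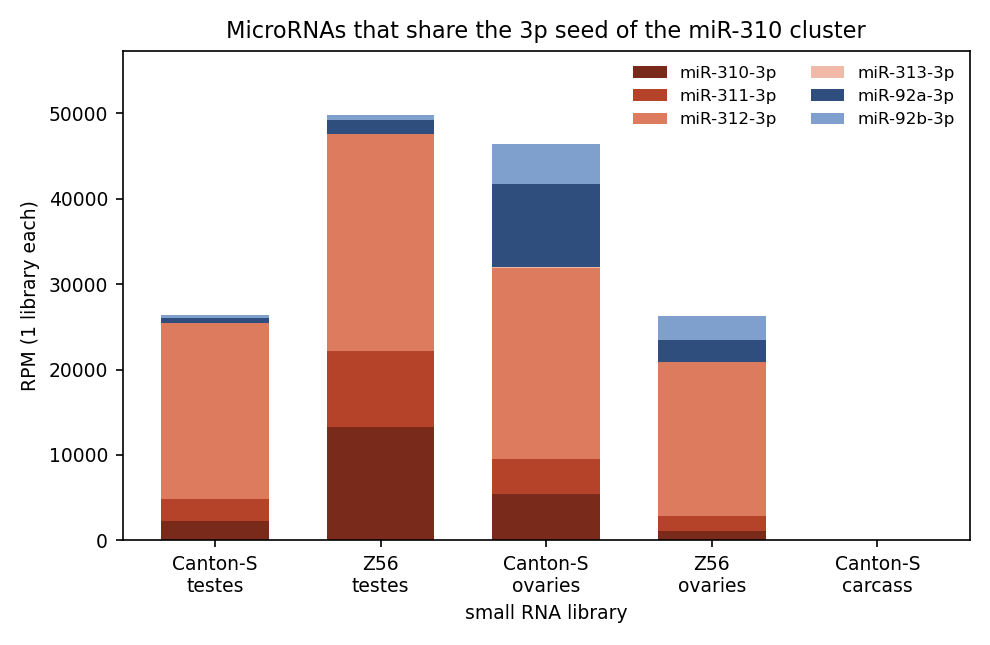
Level of each 3p arm with the seed of the cluster, in RPM, stacked for each of the 5 small RNA libraries (1 library each). Cluster arms are in reds and the miR-92 arms in blues: in both testis libraries the cluster makes up 96.4% (Canton-S) and 95.5% (Z56) of the stack, and the carcass bar is too low to see at 68.5 RPM.

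As a group the targets stood slightly higher in mutant than in control testes. Their median difference, mutant minus control, was 0.043 on the log2(RPKM) scale, a 1.03-fold difference, while the median of the unmarked genes was 0. The difference was positive for 62.8% of the 183 targets, with 68 negative, and for 49.9% of unmarked genes. The 3242 protein coding unmarked genes had a median of 0.0033, with 50.9% positive, which leaves a gap of 0.040. The size is below the error of a single gene: the median standard error of a target's difference was 0.071, and the 2 libraries of a group differed by a median of 0.083 between mutants and 0.067 between controls. When each library was left out in turn the gap between the medians lay between 0.033 and 0.054, and choosing the genes by their mutant mean (184 targets) left it at 0.043. No test of the group was made, because the targets were chosen with results of these data known.

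The gap between targets and unmarked genes lay mainly on the low side of the distribution. At the 10th percentile the targets were at -0.13 and the unmarked genes at -0.22, and at the 25th percentile at -0.03 and -0.10. At the 75th percentile the values were 0.12 for targets and 0.09 for unmarked genes, and at the 90th they were 0.18 and 0.17. A difference beyond -0.2 was seen in 11 targets (6.01%) and 421 of 3517 unmarked genes, and one above 0.2 in 9.29% of targets and 6.68% of unmarked genes. Among protein coding unmarked genes alone the 10th and 25th percentiles were -0.20 and -0.09, and 10.1% lay beyond -0.2. In all, 155 of the 183 targets lay within 0.2 of no difference.

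**Figure D2:**
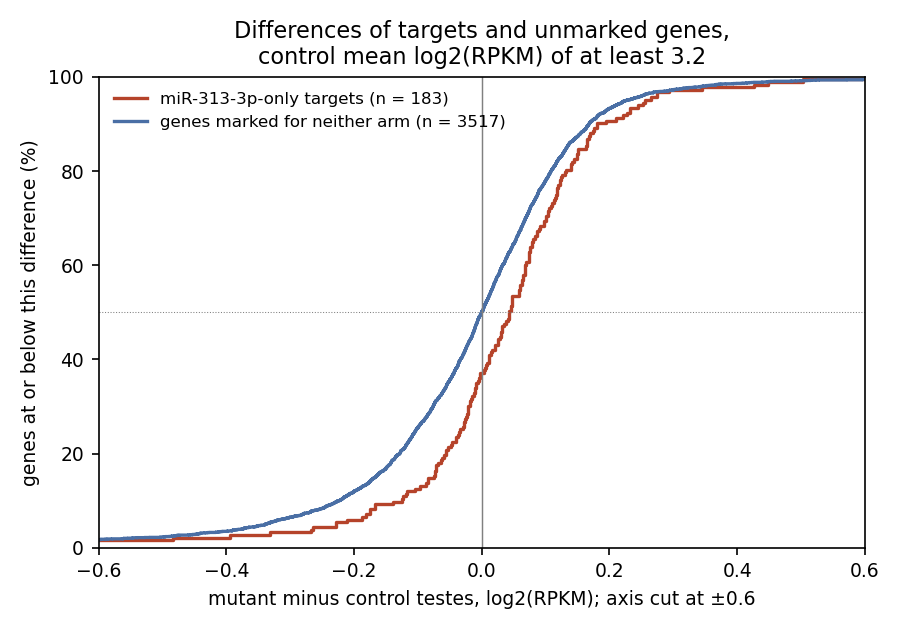
Cumulative share of genes against the mutant-minus-control difference in log2(RPKM), for the 183 targets (red) and the 3517 unmarked genes (blue). The red curve runs to the right of the blue one, most clearly below 0, where the 25th percentile was -0.03 for targets and -0.10 for unmarked genes, and the curves nearly meet at the 90th percentile.

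Both mutant libraries stood above both control libraries for 71 targets (38.8%), against 26.2% of all genes and 26.3% of unmarked genes at this level. Both mutant libraries stood below both controls for 28 targets (15.3%), against 24.2% of all genes and 26.3% of unmarked genes. Of protein coding unmarked genes 27.2% were higher and 25.1% lower without overlap. The other 84 targets had overlapping groups. The share of single targets that passed the test was near that of other genes: limma called 2 of 183 at an adjusted p under 0.05 over all 7539 genes (1.09%), where 1.5% of all genes and 1.56% of unmarked genes were called. Of these 2 targets 1 was higher in the mutant, a direction in which 0.544% of all genes and 0.426% of unmarked genes were called, and 1 was lower, as were 0.955% of all genes and 1.14% of unmarked genes. At an unadjusted p under 0.05 stood 27 targets (14.8%), against 17.7% of all genes and 18.5% of unmarked genes. Of the 27, 20 were higher (10.9% of targets, against 8.18% of all genes and 7.39% of unmarked genes) and 7 were lower (3.83% of targets, against 9.47% of all genes and 11.1% of unmarked genes).

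The medians were also compared within bins of expression level. With the targets divided into 5 bins by their control mean, the 37 targets with the highest levels, above 5.54, had a median difference of 0.048 against 0.0021 for 1021 unmarked genes, and 75.7% were positive. The 36 targets between 4.82 and 5.54 had a median of 0.064 against -0.0046 for unmarked genes, with 27 of 36 positive. Between 4.29 and 4.82 the targets lay no higher, with a median of -0.0027 against 0.0095 and 48.6% positive. The bins below showed gaps of the same sign as the upper ones: medians of 0.033 against -0.0023 from 3.75 to 4.29, and 0.026 against -0.0034 from 3.2 to 3.75. Whether these bins differ from each other was not tested.

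**Figure D3:**
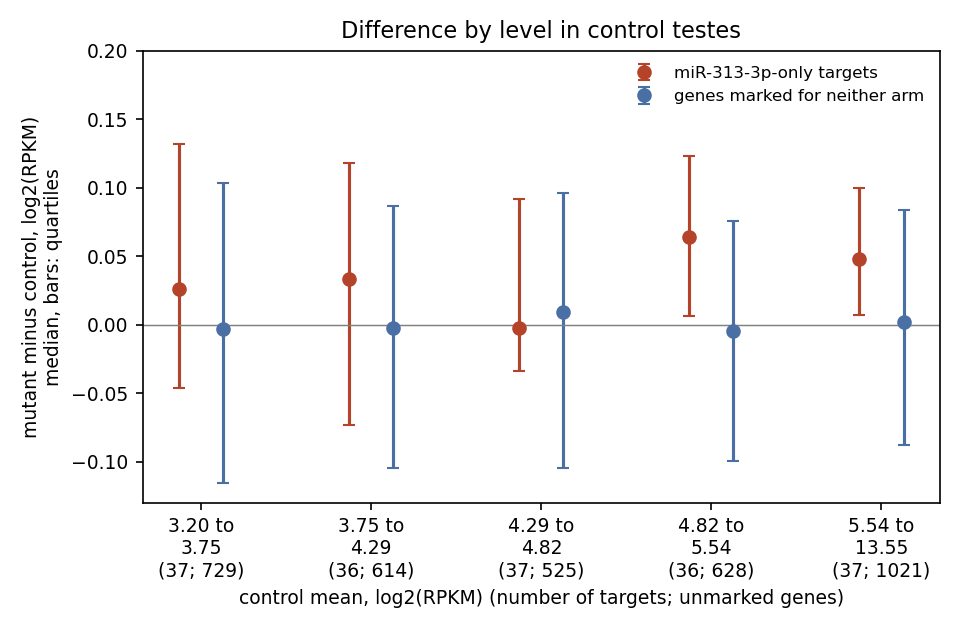
Median mutant-minus-control difference in log2(RPKM) with quartiles as bars, for targets (red) and unmarked genes (blue) in 5 bins of the control mean. Targets lie above unmarked genes in 4 of the 5 bins and not in the bin from 4.29 to 4.82, and the quartile bars overlap in every bin.

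At the edge of the choice, the targets just above the level were CG8331 (current symbol ReepB), CG31342 and the vesicle transport GTPase gene Rab2. CG8331 had 3.29 and 3.36 in mutant and 3.27 and 3.14 in control testes, CG31342 had a mutant mean of 3.13 and a control mean of 3.21, and Rab2 had a mutant mean of 3.24 and a control mean of 3.21. Just below the level stood disp, which encodes the transporter that releases Hedgehog, with a mutant mean of 2.97 and a control mean of 3.19, CG31808 with 3.10 in mutant and 3.17 in control testes, and CG12024 with 3.59 in mutant and 3.17 in control testes.

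One target passed the test in each direction, and neither has a named function in the annotation used. CG12729 had log2(RPKM) values of 5.27 and 5.29 in mutant testes, against 4.78 and 4.78 in control testes. It rose by 0.50 ± 0.06 (SE; 1.42-fold; limma adjusted p 0.027), and the libraries of each genotype nearly coincided. CG12521 had 6.08 and 5.90 in mutant testes, against 6.64 and 6.57 in control testes, and fell by 0.61 ± 0.08 (limma adjusted p 0.0371), with no overlap. Without 1 library the differences kept their direction and lay between 0.49 and 0.52 for CG12729 and between -0.70 and -0.52 for CG12521, with the lone library of a genotype assumed to vary like the other genotype. In those fits the call of CG12729 was lost without mutant replicate 1 (limma adjusted p 0.0678), mutant replicate 2 (0.104), control replicate 1 (0.143) or control replicate 2 (0.154), and that of CG12521 without mutant replicate 2 (0.0871), control replicate 1 (0.154) or control replicate 2 (0.131), while it held without mutant replicate 1 (0.035). With all 4 libraries and no trend in eBayes, limma gave adjusted p of 0.0503 for CG12729 and 0.0599 for CG12521.

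**Figure D4:**
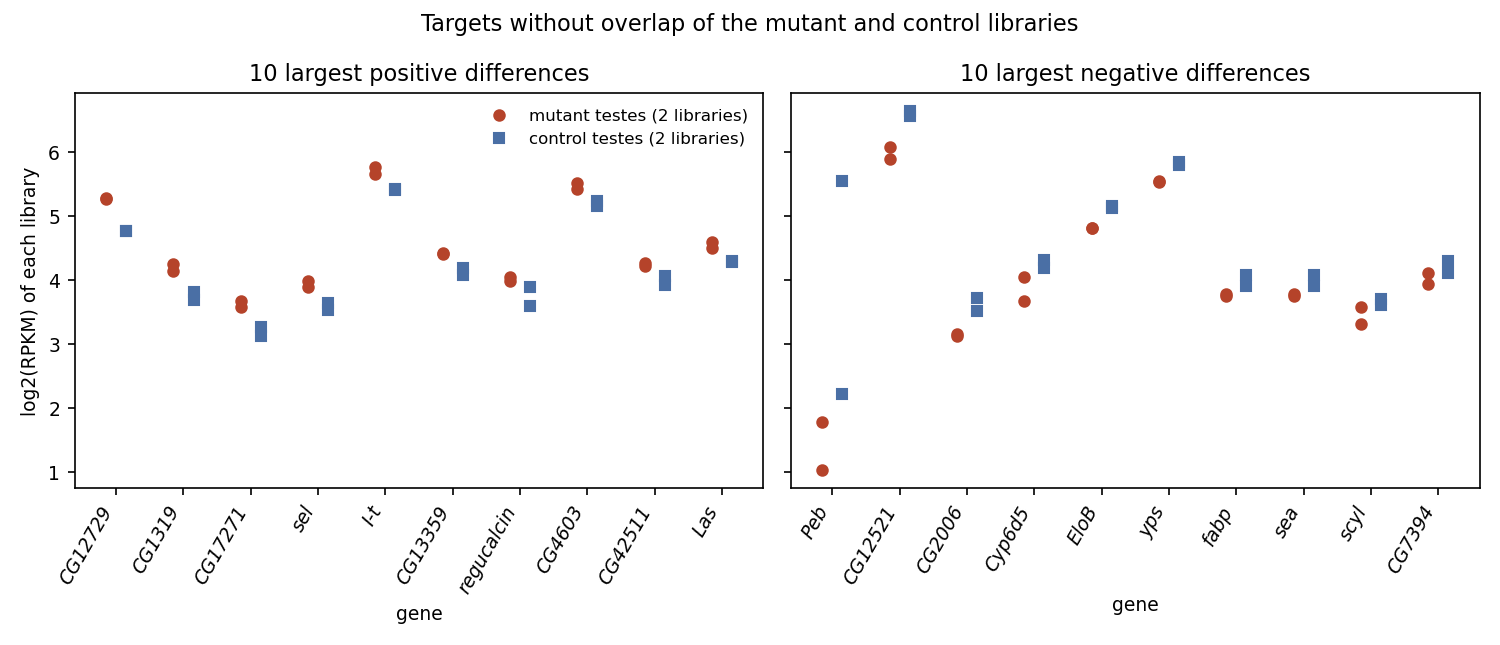
log2(RPKM) of each of the 2 mutant (red circles) and 2 control (blue squares) libraries for the 10 largest positive (left) and 10 largest negative (right) differences among targets whose libraries did not overlap. CG12729 and CG12521 are the called genes, and Peb is set apart by the gap between its control libraries, 5.55 and 2.23.

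Below the called gene, the largest positive differences with no overlap came from genes of varied function, none of them called. CG1319 (current symbol Fdx2), a ferredoxin of the mitochondria, had 4.26 and 4.14 in mutant testes, against 3.69 and 3.81 in control testes, a difference of 0.45 ± 0.08 (SE; limma adjusted p 0.0754). CG17271, of no named function, had 3.69 and 3.59 in mutant testes against 3.28 and 3.14 in control testes (0.43 ± 0.09; adjusted p 0.095). The gene sel, whose protein resides in the endoplasmic reticulum and is needed for embryonic patterning, had 3.89 and 3.99 in mutant against 3.54 and 3.65 in control testes (0.34 ± 0.08). In these 3 genes the gap between genotypes was wider than the spread within either genotype. The testis gene I-t, an inhibitor of protein phosphatase, had 5.78 and 5.66 in mutant against 5.43 and 5.42 in control testes (0.29 ± 0.06; adjusted p 0.112). CG13359 and the calcium-binding protein gene regucalcin both differed by 0.28, CG4603 (current symbol Yod1, in mammals a deubiquitinase of protein quality control) by 0.26, CG42511 (current symbol BBIP1, in mammals a part of the ciliary BBSome) by 0.26 and the lipoic acid synthase gene Las by 0.25, with adjusted p between 0.134 and 0.285. CG42511 has the same profile as another gene in the table, so its reads cannot be assigned to it alone.

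On the negative side the widest gap belonged to Peb (current symbol Ebp), a protein of the ejaculatory bulb. It had 1.79 and 1.03 in mutant testes, against 5.55 and 2.23 in control testes, and was not called (-2.47 ± 1.03; limma adjusted p 0.299). The mutant value of 1.03 is close to 1.00, the lowest value of any gene analysed. The controls lay further apart than control replicate 2 did from either mutant: without control replicate 2 the difference was -4.14 (limma adjusted p 0.0175, with the lone control library assumed to vary like the mutant ones), and without control replicate 1 it was -0.81. Control replicate 1 alone lies above 3.2 and so brought Peb into the choice. Peb is a marker of tissue outside the testis. The 4 measured of 5 listed ejaculatory duct and bulb markers, Peb among them, summed to 423 and 524 RPKM in mutant libraries and to 678 and 341 RPKM in control libraries. Of these 4 markers, 1 stood higher and 3 lower in the mutant. The 7 measured accessory gland markers summed to 2088 and 2465 RPKM in mutant and to 3094 and 2924 RPKM in control libraries. That gap lay in SP, the sex peptide (1111 and 1251 RPKM in mutant, 2079 and 1902 RPKM in control libraries; limma adjusted p 0.0314). The other 6 summed to 977 and 1214 RPKM in mutant and 1015 and 1022 RPKM in control libraries, with 3 higher and 3 lower in the mutant. The part of such tissue in the Peb values was not tested. Acp26Ab, a seminal fluid gene of the accessory gland that is also among the targets, had overlapping groups (0.07 ± 0.17).

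Apart from Peb and the called CG12521, the negative differences with no overlap were smaller, and none was called. CG2006 had 3.16 and 3.13 in mutant against 3.73 and 3.53 in control testes (-0.48 ± 0.09; limma adjusted p 0.0853). Its mutant mean of 3.14 lies under the level of 3.2, so it was chosen through the control group alone, where it is higher. EloB, elongin B, an adaptor of cullin ubiquitin ligases, had 4.81 and 4.82 in mutant against 5.14 and 5.16 in control testes (-0.33 ± 0.06; adjusted p 0.0663), and yps, a Y-box protein that represses translation, had 5.55 and 5.56 in mutant against 5.84 and 5.80 in control testes (-0.27 ± 0.05; adjusted p 0.0934). In EloB and yps the libraries of a genotype lay close together. The cytochrome P450 gene Cyp6d5 differed by -0.39, scyl, an inhibitor of TOR signalling, by -0.21, and CG7394 (synonym TIM14, a part of the mitochondrial import motor) by -0.19. The mitochondrial citrate carrier gene sea and the fatty acid-binding protein gene fabp both stood at -0.23, but they have a single profile in the table and cannot be told apart. The widest positive difference of any target, in CG14292, had overlapping groups: 4.94 and 6.38 in mutant against 3.97 and 5.08 in control testes (1.14 ± 0.55; adjusted p 0.364; named after its values were seen).

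The 8 most abundant targets differed by at most 0.15. CG10252 was at the top, with 9.47 and 9.62 in mutant against 9.55 and 9.47 in control testes, followed by the metallothionein gene MtnA with 9.11 and 8.92 in mutant against 8.94 and 8.90 in control testes. CG1288 had 8.33 and 8.26 in mutant against 8.14 and 8.16 in control testes (0.15 ± 0.06; limma adjusted p 0.26). Of the 8, CG1288 and CG32445 (7.42 and 7.37 in mutant against 7.36 and 7.28 in control testes) had groups that did not overlap, both higher in the mutant, where 26.2% of all genes did so. CG2291 differed by 0.03, CG42393 by 0.0071 and the ribosomal protein genes RpL21 and RpS25 by -0.02 and -0.07.

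Some targets were placed by hand in 8 functional groups by known role, and a target left out may still belong to one. The placed targets had a median difference of 0.068, against 0.021 for the others. The groups were written after the values were seen, so their counts are descriptions. They hold 77 of the 183 targets, of which none was called by limma at an adjusted p under 0.05 (16 at an unadjusted p under 0.05), where 1.5% of all genes were called and 17.7% had such an unadjusted p.

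Targets of the secretory and endosomal pathway were mostly positive, 15 of 19 with a median of 0.069. The signal peptide peptidase gene Spp had 4.87 and 4.86 in mutant against 4.73 and 4.53 in control testes, a difference of 0.23. Sec24AB, a coat protein of vesicles leaving the endoplasmic reticulum, had 5.03 and 4.96 in mutant against 4.82 and 4.83 in control testes (0.17 ± 0.06; limma adjusted p 0.25). The small GTPase gene Rab30 differed by 0.17, CG4552 (current symbol TBC1D23) by 0.14, the derlin gene Der-2 by 0.11 and KdelR, the retrieval receptor of the endoplasmic reticulum, by 0.09. The 4 negative ones were small: Rop, a regulator of membrane fusion, at -0.08, the retromer gene Vps29 at -0.07, Chmp1 at -0.06 and Rab14 at -0.05. Of the wider list of membrane traffic and small GTPase genes 98 were measured, targets or not, with 57 positive and a median of 0.02. None was called (5 at an unadjusted p under 0.05), where 1.5% of all genes were called and 17.7% had such an unadjusted p. The 7 targets on that list (Clc, Rab2, Rab14, Rab30, Rop, Sec24AB and Vps29) had a median of 0.039, with 4 positive.

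Mitochondrial targets were positive in 10 of 12 cases, with a median of 0.098. The gene porin, which encodes the channel of the outer membrane, had 5.09 and 5.09 in mutant against 4.93 and 4.96 in control testes (0.14 ± 0.06; limma adjusted p 0.276). The ATP synthase subunit gene blw had 5.60 and 5.72 in mutant against 5.55 and 5.48 in control testes (0.14 ± 0.07). The mitochondrial ribosomal protein gene mRpS7 differed by 0.22, CG5660 (current symbol ValRS-m) by 0.12, the pyruvate carrier gene Mpc1 by 0.08 and the import receptor gene Tom20 by 0.07. The negative ones were sea and CG7394. The wider list of mitochondrial proteins, on which 4 of the 96 measured genes are among these targets, also held more positive than negative differences: 72 were positive with a median of 0.053, and 1 was called, higher in the mutant (0.544% of all genes were called in that direction). The vacuolar ATPase subunit genes Vha16-1 and Vha55 differed by 0.17 and 0.08.

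Targets linked to microtubules, cilia and spermatids were positive in 9 of 11 cases, with a median of 0.098. These included I-t and CG42511 (above), CG3967 (current symbol Atat, a tubulin acetyltransferase) at 0.15, the tubulin ligase gene TTLL3B at 0.12, and h-cup and f-cup, which are transcribed in spermatids, at 0.12 and 0.05. CG3967 had 6.26 and 6.19 in mutant against 6.07 and 6.08 in control testes. CG16833 (current symbol TTLL4A) stood at -0.06 and SAK, the kinase of centriole duplication, at -0.02. On the cytoskeleton, motor and cilia list 91 genes were measured, with 50 positive and a median of 0.014. None was called by limma (12 at an unadjusted p under 0.05), where 1.5% of all genes were called and 17.7% had such an unadjusted p. The members of this list among the targets were SAK and cib, an actin-binding protein (0.16 ± 0.10).

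Targets that act on messenger RNA and translation were mixed, 8 positive and 6 negative with a median of 0.03. Thor, the repressor that binds the cap-binding protein eIF4E, had 4.49 and 5.21 in mutant against 5.10 and 5.96 in control testes, and its groups overlapped (-0.69 ± 0.34; limma adjusted p 0.374). Lk6, a kinase of eIF4E, had 3.73 and 3.82 in mutant against 3.90 and 3.93 in control testes (-0.14 ± 0.07). On the positive side the stress granule gene rin differed by 0.17, CG9323 (current symbol Rhau, a helicase) by 0.12 and orb, a regulator of messenger RNA polyadenylation, by 0.09. The RNA-binding protein gene nito differed by 0.07. Of the list of RNA binding and translation genes, which does not hold Thor or Lk6, 55 were measured, 40 of them positive, with a median of 0.049. None was called by limma (4 at an unadjusted p under 0.05), where 1.5% of all genes were called and 17.7% had such an unadjusted p.

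**Figure D5:**
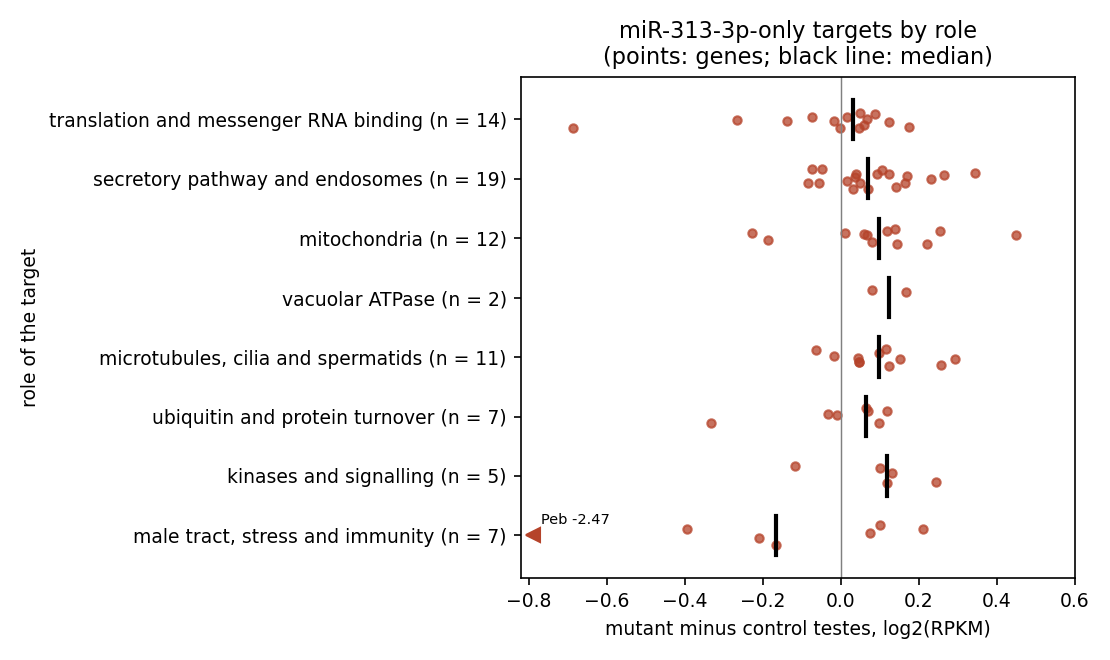
Mutant-minus-control difference in log2(RPKM) of each of the 77 targets placed in a functional group (points), with the group median as a black line. Medians are above 0 in 7 of the 8 groups and at -0.17 in the group of male tract, stress and immunity genes, where Peb lies off the axis at -2.47.

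The remaining groups were small. Among ubiquitin and turnover genes, 4 of 7 targets were positive, with Rad23 at 0.12, the deubiquitinase gene CYLD at 0.10, EloB at -0.33 and the cullin gene Cul1 at -0.03. Among kinases and signalling genes, 4 of 5 were positive, with the Ste20-type kinase gene GckIII at 0.25 (4.28 and 4.32 in mutant against 4.12 and 3.99 in control testes) and the G protein subunit gene Ggamma1 at -0.12. This count depends on the placement. The kinase genes Lk6 (-0.14) and SAK (-0.02) and the TOR inhibitor scyl (-0.21), all negative, were placed in other groups. Lk6 was the only target on the list of kinases and phosphatases. The male tract, stress and immunity group had a median of -0.17, with 4 of 7 negative, among them Jra, the fly Jun, at -0.17. Beside the groups stood the nuclear receptor gene Hnf4 at 0.07 and the deacetylase gene Sirt2 at 0.17. Of the cell division genes, named after their values were seen, the cyclin gene CycG differed by 0.18, bora, an activator of Aurora kinase, by 0.12 and mei-S332, which protects cohesion in meiosis, by -0.0027. None of the targets was on the lists of Wnt signalling (17 measured genes), of Notch, Hedgehog, BMP and JAK-STAT signalling (23), of apoptosis (16), or of reported targets of the cluster and of miR-92 (5), and limma called none of those genes (0, 1, 2 and 0 at an unadjusted p under 0.05). On the other lists limma also called none of the measured genes, targets or not: 31 transcription factors (2 at an unadjusted p under 0.05; median 0.07), 43 chromatin regulators (1; 0.04), 41 kinases and phosphatases (1; 0.01), 69 genes of ubiquitin and turnover (8; -0.0037) and 24 of EGF receptor, insulin and TOR signalling (3; -0.01), the last with Thor and scyl. Of all genes 1.5% were called and 17.7% had an unadjusted p under 0.05. At that share of calls lists of this size hold few or none, so the absence of calls says little about them. The remaining 106 targets had a median of 0.02, with 60 positive.

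Differences between these targets and the sets most like them were not tested. The 260 targets of the 3p arm below the level had a median difference of 0.044, against 0.0021 for the 3338 unmarked genes below it. The 84 targets of the 5p arm only at or above the level had a median of 0.038, and the 16 targets of both arms there had -0.01. The median of all 7539 genes was 0.0045. Of the 260 and the 84, 35% and 34.5% were higher without overlap, and 13.8% and 16.7% were lower. For the unmarked genes below the level these shares were 24.6% and 23.6%, and for the 16 targets of both arms 25% and 12.5%. The excess of higher over lower genes was therefore not limited to the targets described here (38.8% and 15.3%).

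Across genes, which are no replicates, any 2 of the 4 testis libraries correlated at a Pearson r of 0.983 to 0.994. Of 14 listed germ line markers 13 were measured, with sums of 2416 and 2445 RPKM in mutant libraries and 2278 and 2334 RPKM in control libraries, and bam was not analysed here. Of the 13, 5 stood higher and 8 lower in the mutant. The most abundant went both ways, with Mst98Ca (0.20) and betaTub85D (0.12) among the 5 and dj (-0.15) and Mst87F (-0.01) among the 8. Of 7 listed somatic cyst and hub markers 3 were measured (24.5 and 28.6 RPKM in mutant, 25.9 and 27.3 RPKM in control libraries), one of which, the adhesion gene Fas3, is itself a target with a difference of -0.01. Adh, the 1 measured of 5 fat body markers, was at 18.7 and 20.9 RPKM in mutant and 11.3 and 10.3 RPKM in control libraries and rose by 0.88 (limma adjusted p 0.0251), and the 3 measured of 6 muscle markers summed to 31.2 and 37.9 RPKM in mutant and 36.0 and 29.6 RPKM in control libraries. The part of other tissues in the differences of the targets was not tested. MicroRNAs of the mutant were not analysed here, so loss of the cluster was not checked.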

How the data were processed

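Messenger RNA of the 4 testis libraries was given by the authors as log2(RPKM) per gene, with a TargetScan mark for each arm of miR-313, per the file headers. The submitters' processing notes name TopHat, whose version was not given in the sources used here, nor were counter, strand use and build. The lowest value is 1.00, so a gene under that level in 1 library was not analysed here. Sorted columns lie within 0.044 of each other, as after quantile normalization, so depth is unknown and no reads could be recovered. Of the 183 targets 179 matched the name table, all are protein coding in RefSeq (Release 6 plus ISO1 MT), and 8 have the profile of another gene as well. The deposited small RNA tables hold read counts and RPM, and the RPM equals the count over the column total within 0.005. Duplicate names were merged at their highest count, as were miR-276a-5p and miR-276b-5p, leaving 465 microRNAs and 398044 to 12306695 reads a library. The RPM was kept as deposited and so refers to the totals before merging, 404183 to 12445851 reads.

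All 7539 genes were fitted with limma (version 3.58.1, R 4.3.3; eBayes with a trend; 3.46 prior degrees of freedom) on the values as deposited with no pseudocount, and p-values were adjusted by Benjamini-Hochberg over all genes at 0.05. The code was tested on simulated data. An exact permutation of 2 against 2 libraries cannot go under a two-sided p of 0.333 and was not used. Named by rule were called targets, the 10 widest differences a direction without overlap, the 8 most abundant, up to 3 a gene list and 3 on either side of the level. Targets, lists and rules were chosen with earlier results of these data known. Alternatives changed the trend, pseudocount (1), filter, scaling, level, libraries and replicate block.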

Additional observations from a re-analysis of the deposited data

How the results depend on the processing

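The gap of 0.043 between the medians of targets and unmarked genes lay between 0.033 and 0.054 without 1 library. It lay between 0.04 and 0.046 with repeated quantile normalization, the pseudocount, and each change of level and comparison set tried. Centring on unmarked genes and the replicate block left it at 0.043, but neither could move it. Centring shifts both medians alike, and the block leaves each gene's difference as it was. The filter lies below the level that chose the genes, so the unchanged gap of 0.043 with it says little. The share of positive targets was 59.6 to 67.2% without 1 library, 66.1% after centring on unmarked genes (of which 52.8% were then positive) and 66.3% when genes were chosen by the mutant mean. The number of targets called by limma was 2, but 0 without the trend and 4 with the replicate block. Without the trend the calls over all genes fell as well, from 113 to 81. At an unadjusted p under 0.05 stood 21 targets without the trend and 27 with it. The share of all genes at that unadjusted p without the trend is not given here. Without 1 library no count of calls is given, because a genotype then has a single library. With the block Thor (adjusted p 0.00954) and CG14292 joined CG12729 and CG12521, and 238 of all genes were called instead of 113. Same-numbered libraries deviated with a correlation of 0.06 across genes, and the labels state no pairing. With 3 libraries fewer values can overlap, and the counts without overlap rose for targets and unmarked genes alike. Then 86 to 100 targets were higher and 43 to 54 lower, against 71 and 28 with all 4 libraries. Of unmarked genes 36.8 to 39.9% were higher and 36.3 to 41.5% lower, against 26.3% in each direction with all 4 libraries. These counts, the unadjusted counts and the comparison with protein coding unmarked genes were added after the data were seen. Of 47 named genes, 7 with small differences changed sign without 1 library: CG10252 (-0.044 to 0.11), CG2291 (-0.029 to 0.088), CG42393 (-0.055 to 0.069), RpL21 (-0.12 to 0.083), RpS25 (-0.21 to 0.065), SAK (-0.090 to 0.052) and Rab2 (-0.062 to 0.14). With 2 libraries per group and unknown depth, the standard error of a single target exceeds the median difference, so the group's shift cannot be assigned to particular genes.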
